A study of Mus musculus with 27 samples.

Results

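The genes of tryptophan and kynurenine metabolism were followed in RNA from the colonic epithelium of 27 male C57BL/6 mice. The 9 members were Ido1, Afmid, Kynu, Kmo, Haao, Aadat, Kyat1, Il4i1 and Wars, chosen by symbol among 46078 counted genes, and all 9 had a row in every count table. Each of 9 groups held 3 mice, given sesame oil vehicle alone or with TCDD at 1 of 8 doses, from 0.01 to 0.3 μg/kg in the 4 lower groups (with 0.03 and 0.1 between) and 1, 3, 10 and 30 μg/kg in the upper 4. TCDD is a dioxin that binds and activates the aryl hydrocarbon receptor (AhR). The mice were gavaged every 4 days over 28 days, 7 gavages in all, and were 28 days old at the start and 56 days old at the end. The labels name no engineered allele, and all groups received sesame oil. The tissue was scraped rather than sorted, so fewer cells of a type and less RNA per cell cannot be told apart in any value given here. Of the 9 members, 7 passed the filter on low counts that left 16496 genes for testing, and Haao and Aadat were too low to judge.

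Tryptophan that is not built into protein is degraded mostly by way of kynurenine, in a chain that starts with oxidation of the indole ring. Kynurenine and its transamination product kynurenic acid bind AhR, as do indoles made from tryptophan by transamination or oxidation, so the same enzymes supply ligands for the receptor that TCDD activates. In the gut, AhR ligands also come from the diet and from bacteria, and AhR signalling there is known for its part in epithelial renewal and mucosal immunity. IDO1 opens the ring, AFMID releases kynurenine from its formyl precursor, and KMO, KYNU and HAAO carry it on towards NAD. KYAT1 and AADAT are aminotransferases that divert kynurenine to kynurenic acid, IL4I1 is an L-amino acid oxidase that acts on tryptophan and phenylalanine, and WARS charges tRNA with tryptophan.

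The 9 genes lie apart in the genome, 2 of them on chromosome 2 and 2 on chromosome 8 (GRCm38, with gene bounds from GENCODE; the annotation that was counted is not given in the sources used here). Kyat1 (ENSMUSG00000039648) spans chromosome 2, 30185124 to 30205847, on the minus strand, and Ido1 (ENSMUSG00000031551) spans chromosome 8, 24584136 to 24597009, on the minus strand. The exons of 7 members share no base with the exons of another annotated gene. Of Il4i1 (chromosome 7, 44816387 to 44840809, plus strand), 83.9% of the 4080 exon bases are shared with Tbc1d17 on the opposite strand. Of Afmid (chromosome 11, 117825924 to 117839908, plus strand), 44.2% of the exon bases are shared with the same-strand readthrough gene Gm20708, which held 0 to 5 counts per mouse. How strand was used in counting is not given in the sources used here, so the values of Il4i1 and Afmid are uncertain where exons overlap.

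RefSeq promoters (GRCm38.p6) were held here for 6 of the 9 members, Kmo, Kyat1, Il4i1, Aadat, Afmid and Haao. The core of the dioxin response element, GCGTG, was searched on both strands of the 250 bases before each start, and it lay in 2 of the 6, Kyat1 and Haao, beside 28.2% of 32851 promoters of the same length. The Kyat1 window is shown because Kyat1 is the member that passed the threshold at single doses. It lies at chr2:30205848-30206097 and is written 5′ to 3′ along the gene, on the minus strand of the chromosome. Capitals mark the match, whose GCGTG reads on the opposite strand.
Kyat1 promoter: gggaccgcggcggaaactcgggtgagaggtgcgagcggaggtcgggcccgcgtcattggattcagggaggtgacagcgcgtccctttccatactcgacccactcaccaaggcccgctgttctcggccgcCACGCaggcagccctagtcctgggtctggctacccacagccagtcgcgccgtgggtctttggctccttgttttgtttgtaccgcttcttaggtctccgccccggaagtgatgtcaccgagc
None of the 6 windows held an E-box CACGTG, a D-box TTATGNAA, a GAS element TTCNNNGAA or the core of the interferon-stimulated response element, letters found in 6.02%, 3.07%, 7.02% and 2.98% of all windows. A match describes letters only.

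Depth ran from 9305441 to 14371035 gene counts per mouse (median 11651026). The 5 AhR target genes followed as a check on treatment (Cyp1a1, Cyp1b1, Ahrr, Tiparp and Nqo1) all passed the threshold as higher at 30 μg/kg, and 3 of the 5 (Cyp1a1, Cyp1b1 and Ahrr) at 10 μg/kg. Markers of the labelled tissue were abundant, colonocyte and goblet cell genes being at a summed 11409 to 12017 and 49919 to 57995 CPM (counts scaled to the size of each library) in vehicle-treated mice. By mouse number, the first 16 libraries carried 16 different index barcodes and the other 11 repeated 11 of these. This division followed dose: all mice up to 0.3 μg/kg and 1 of those at 1 μg/kg were in the first index set, and the rest were in the second. The labels do not say which libraries were pooled, so whether the index sets were separate sequencing pools is not known. Clock gene expression followed dose as well, with 9 of 9 rising and 4 of 5 falling clock genes called at 30 μg/kg, beside 2.95% and 3.21% of all genes. These 2 lists were split by direction and chosen with earlier results of these data known, so their counts are a description and not a test. A clock score, the mean log2 CPM of 9 clock genes minus that of 5 opposed ones, lay between -2.82 and -0.42 in the mice given up to 0.3 μg/kg, except mouse 14 (0.01 μg/kg) at 1.45, and between 0.90 and 2.19 from 1 μg/kg up.

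Wars was the most abundant member and the NAD branch was nearly silent. Per length of exon, as TMM-scaled reads per kilobase of exon (RPKM), vehicle-treated mice held Wars at 25.5 ± 1.29 (SD, n = 3), Kyat1 at 6.94 ± 1.32, Ido1 at 2.99 ± 1.46, Afmid at 1.94 ± 0.268 and Il4i1 at 0.721 ± 0.107. Kmo (0.168 ± 0.0929), Kynu (0.0807 ± 0.0467) and Haao (0.0365 ± 0.0269) followed, and Aadat was at 0 counts in all 3 mice. The ranges of Ido1 and Afmid overlapped, as did those of Kmo and Kynu and those of Kynu and Haao, so the order within these pairs was not resolved. Over all 27 mice, 91.0% of the tested genes had a lower RPKM than Wars, 73.6% a lower one than Kyat1 and 52.4% a lower one than Ido1, against 1.98% for Kmo and 1.36% for Kynu. Levels depended on the length used. By the longest transcript, the mean over these mice moved from 0.120 to 0.155 for Kmo and from 0.102 to 0.227 for Kynu, which reversed their order. That of Afmid moved from 1.99 to 3.03.

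**Figure D1:**
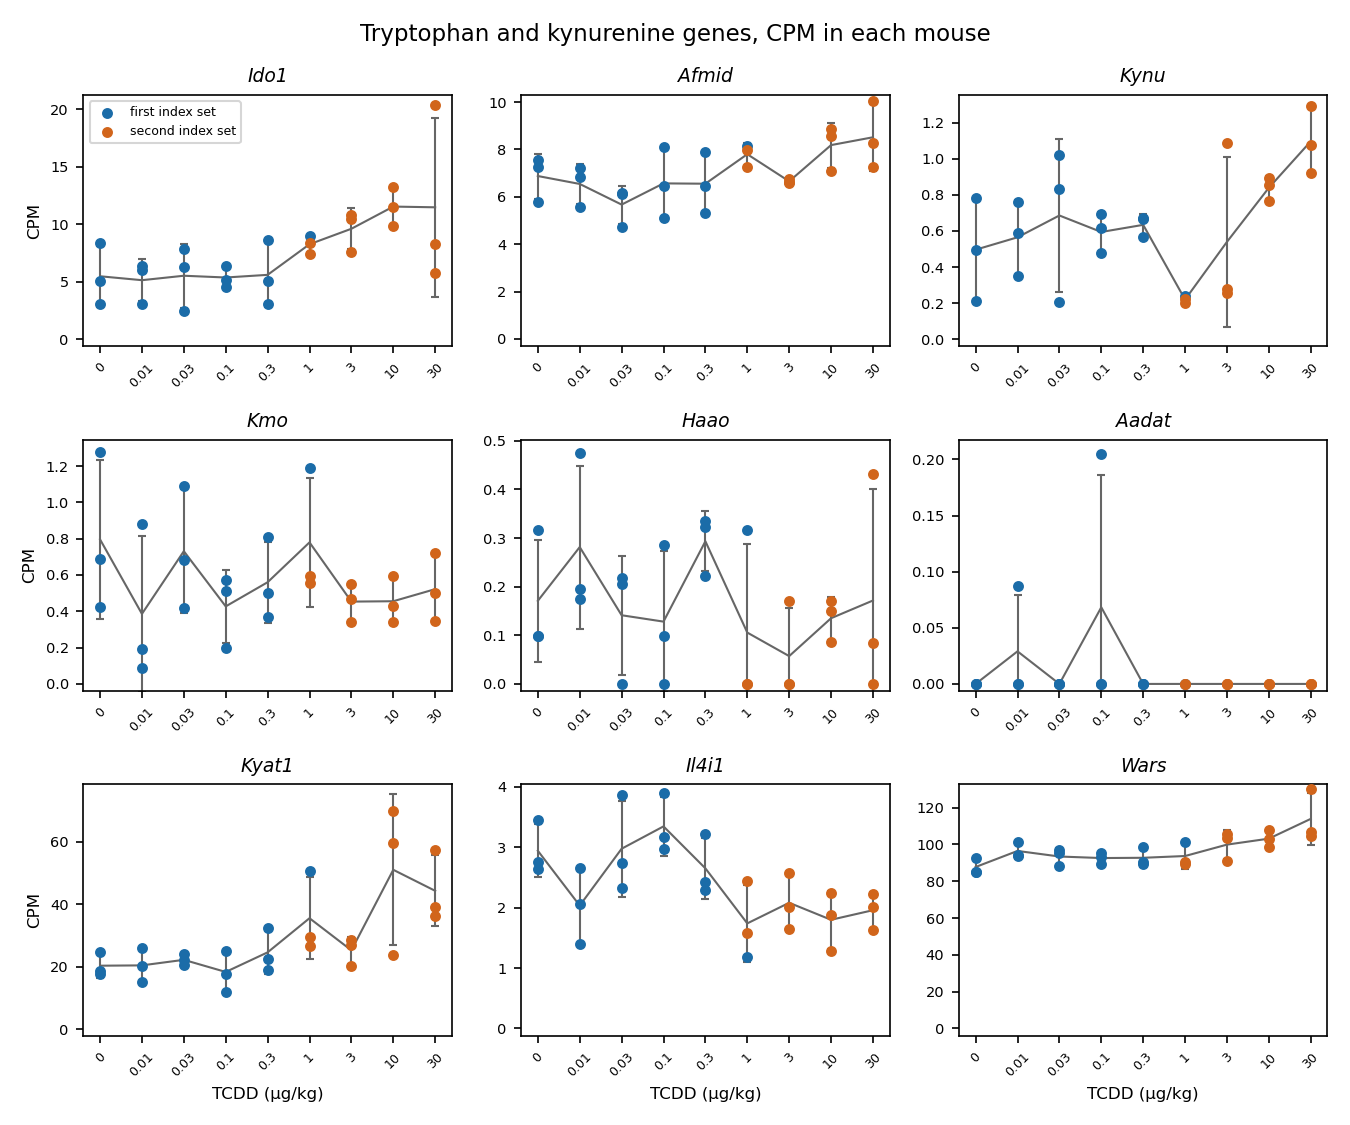
Each panel plots the CPM of 1 member (vertical axis) in each of the 27 mice at vehicle (0) and 8 TCDD doses (horizontal axis, μg/kg); grey lines join the group means, bars are the SD over 3 mice and are drawn down to 0 at most, and colour gives the index set. Kyat1 reached 69.7 CPM at 10 μg/kg with mouse 58 at 23.7, Ido1 reached 20.3 CPM in 1 mouse at 30 μg/kg, and Haao and Aadat stayed at or near 0.

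A gene was called where the edgeR quasi-likelihood test gave an adjusted p under 0.05 and the fold change was at least 1.5. The p-values measure the spread between these mice. By this rule 1 of the 7 tested members, Kyat1, was called at 10 μg/kg, where 1.78% of all genes tested were called (0.812% as higher), and again 1 of 7, Kyat1, at 30 μg/kg, where 6.16% were called (2.95% as higher). None was called at the lower doses, where 0.697% of all genes were called at 3 μg/kg, 0.2% at 1 μg/kg and 0% below that. By edgeR, 2, 1, 4 and 4 of the 7 members had an unadjusted p under 0.05 at 1, 3, 10 and 30 μg/kg, beside 9.8%, 16%, 17.8% and 27% of all genes. Kynu, Kyat1 and Wars at 30 μg/kg lay above every vehicle-treated mouse in all 3 mice, 3 of 7 members beside 14.5% of all genes, and Il4i1 lay below, 1 of 7 beside 15.2%. At 10 μg/kg Ido1 and Wars lay above, 2 of 7 beside 12.1% of all genes, and Il4i1 below, 1 of 7 beside 13.1%. Il4i1 also lay below at 3 μg/kg (11.5% of all genes did) and at 1 μg/kg (7.4%), Kyat1 above at 1 μg/kg (8.78%) and Wars above at 0.01 μg/kg (6.33%). The median log2 fold change of the 7 members was 0.38 at 30 μg/kg and 0.25 at 10 μg/kg, beside -0.0022 and -0.011 over all genes tested, and 5 of the 7 values were above 0 at each dose.

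**Figure D2:**
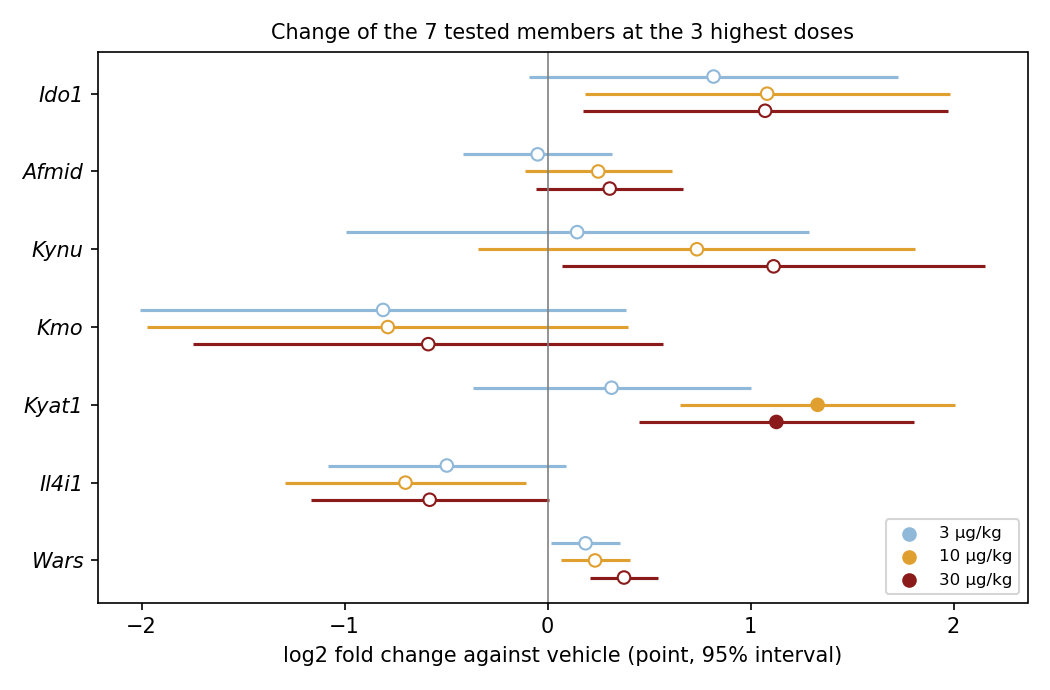
Points give the log2 fold change against vehicle (horizontal axis) of the 7 tested members at 3, 10 and 30 μg/kg TCDD, with 95% intervals as bars from the edgeR fit of all 27 mice; filled points passed the threshold. The filled points are those of Kyat1 at 10 and 30 μg/kg, at 1.33 and 1.13, and the intervals of Kmo and Kynu span over 2 log2 units.

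Kyat1, the aminotransferase that makes kynurenic acid from kynurenine, rose at the 2 highest doses. Vehicle-treated mice held 24.7, 18.6 and 17.6 CPM, mice at 10 μg/kg held 69.7, 23.7 and 59.5 CPM, and mice at 30 μg/kg held 57.3, 36.3 and 39.1 CPM. All 3 mice at 30 μg/kg were above every vehicle-treated mouse, whereas at 10 μg/kg mouse 58, at 23.7 CPM, lay within the vehicle range. Kyat1 differed from vehicle at 10 μg/kg by a log2 fold change of 1.33 (SE 0.33) with an edgeR adjusted p of 0.0254. The 30 μg/kg group differed by 1.13 (SE 0.33) with an edgeR adjusted p of 0.0295. Group means ran from 18.3 to 24.5 CPM up to 0.3 μg/kg, and the mice at 0.3 μg/kg held 18.9, 22.4 and 32.3 CPM. At 1 μg/kg the 3 mice held 50.6, 26.4 and 29.4 CPM, all above the vehicle range, a log2 fold change of 0.81 (SE 0.33) with an edgeR adjusted p of 0.392, and mice given 3 μg/kg held 20.2, 26.9 and 28.5 CPM, with a change of 0.32 (SE 0.33). The level was thus not ordered by dose between 1 and 10 μg/kg, and the spread within the groups at 1 and 10 μg/kg (SD 13.2 and 24.2 CPM) was wider than in vehicle-treated mice (SD 3.86 CPM).

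The Kyat1 call rested on few mice. At 10 μg/kg it was lost when any 1 vehicle-treated mouse, mouse 57 or mouse 59 was left out, with changes of 1.04 to 1.504 and edgeR adjusted p of 0.0519 to 0.128 in those fits. At 30 μg/kg it was lost without vehicle mouse 3 (1.07, edgeR adjusted p = 0.0896), vehicle mouse 4 (1.03, 0.103) or mouse 65 (0.89, 0.103). The call was also lost with limma voom at both doses, and with only the groups compared at 10 μg/kg. An exact permutation test of 3 against 3 mice, which cannot go below 0.1, gave 0.1 at 30 μg/kg and 0.2 at 10 μg/kg. With an index set term the change at 30 μg/kg was 1.97 (SE 0.53, edgeR adjusted p = 0.0389) and that at 10 μg/kg 2.18 (SE 0.53, edgeR adjusted p = 0.0681), both resting on the 3 mice at 1 μg/kg that bridge the sets. Within the second index set, Kyat1 and Afmid at 30 μg/kg lay above all mice at 3 μg/kg, 2 of 7 members beside 7.97% of all genes. The log2 differences, 0.81 for Kyat1 (edgeR adjusted p = 0.324) and 0.35 for Afmid (edgeR adjusted p = 0.460), did not pass, and 0 of the 7 members were called there, beside 0.461% of all genes. For 10 against 3 μg/kg the difference of Kyat1 was 1.015 (edgeR adjusted p = 0.832), again with 0 of 7 members called, beside 0.0485% of all genes, and Afmid alone lay above all mice at 3 μg/kg, 1 of 7 beside 4.49% of all genes.

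Kyat1 also varied with the Hox genes, which mark position along the colon. A Hox score, the first principal component of 25 tested Hox genes (62.3% of their variance, higher where the posterior genes such as Hoxd13 are higher), correlated with log2 CPM of Kyat1 over the 27 mice at Pearson's r = 0.654 (permutation p = 0.00024, adjusted over 15 relations 0.0036) and Spearman's rho = 0.705 (permutation p = 0.0001, adjusted 0.0015). Leaving out the 2 mice farthest from the median score, mice 18 and 35 with 2.21 and 1.55, gave r = 0.776. In the 16 mice of the first index set r was 0.689 (permutation p = 0.00243, adjusted 0.0365) and rho 0.827 (permutation p = 0.00011, adjusted 0.00165). In the 11 mice of the second, r was 0.839 (permutation p = 0.00212, adjusted 0.0318), while rho, 0.664, did not pass after adjustment (permutation p = 0.031, adjusted 0.155). Mice 57 and 59, the high pair at 10 μg/kg, had Hox scores of 1.26 and 1.25, and mouse 58 had -0.96. With the Hox score in the model, Kyat1 was still called, with changes of 1.07 (SE 0.21, edgeR adjusted p = 0.00329) at 10 μg/kg and 1.02 (SE 0.21, edgeR adjusted p = 0.00188) at 30 μg/kg. With the clock score in the model instead, the changes were 0.52 (SE 0.60) and 0.30 (SE 0.60), with edgeR adjusted p of 0.746 and 0.839 and a wider SE. Mouse 14, the 1 mouse under 1 μg/kg with a high clock score, held 26.0 CPM of Kyat1 at 0.01 μg/kg, above the 20.04 and 15.07 CPM of the other mice at that dose, and its Hox score was also the highest of its dose, at 0.037 against -1.03 and -1.90. TCDD, clock state and index set cannot be told apart for Kyat1 in this design.

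**Figure D3:**
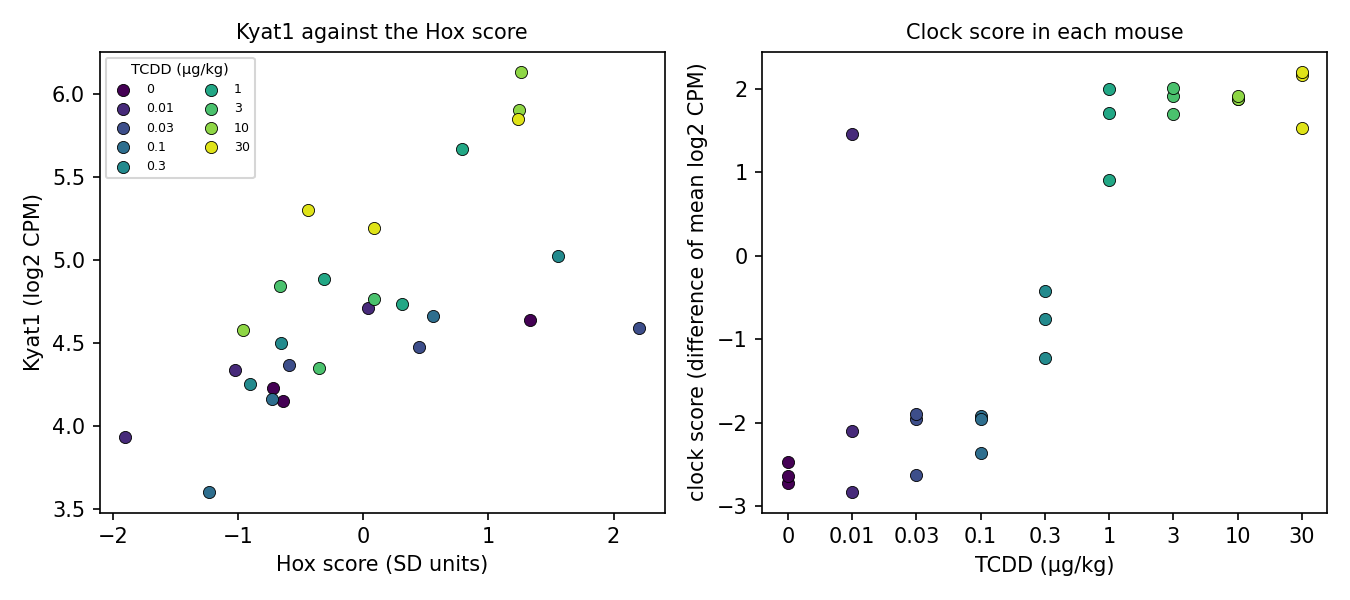
The left panel plots log2 CPM of Kyat1 against the Hox score (in SD units) and the right panel the clock score (difference of mean log2 CPM) against TCDD dose (μg/kg), 1 point per mouse and coloured by dose. Kyat1 was higher in mice with a higher Hox score (r = 0.654), and the clock score was above 0 in all mice from 1 μg/kg up and, below that dose, in mouse 14 alone.

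The genes whose log2 CPM followed Kyat1 most closely over the 27 mice, among 14565 others of at least 1 CPM, were Slc20a1 (a phosphate transporter, r = 0.917), Phlpp2 (a phosphatase that acts on Akt, r = 0.915), Mcl1 (a survival factor of the Bcl2 family, r = 0.905), Slc15a1 (the peptide transporter PepT1, r = 0.899) and Slc6a4 (the serotonin transporter, r = 0.897). These are descriptions over mice that share dose, index set and clock state. After the group means were removed, r was between 0.825 and 0.935 for the 5 genes. None of the 5 was called at 30 μg/kg, where their log2 fold changes lay between 0.46 and 0.95, although Mcl1 passed the adjusted p (0.46, edgeR adjusted p = 0.0301).

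Ido1, which opens the indole ring in the rate-limiting step outside the liver, had higher means from 1 μg/kg up but was called at no dose. Vehicle-treated mice held 3.05, 8.33 and 5.01 CPM (31, 79 and 51 counts). The 4 lowest doses had means of 5.12 to 5.58 CPM, beside 5.46 ± 2.67 CPM with vehicle. Mice given 3 μg/kg held 10.8, 7.55 and 10.5 CPM, the next group 13.2, 9.85 and 11.5 CPM at 10 μg/kg, and the highest dose gave 8.27, 20.3 and 5.78 CPM. All 3 mice at 10 μg/kg were above the vehicle range, whereas at 30 μg/kg mouse 66 alone was, and the other 2 lay within it. The log2 fold change of Ido1 was 1.08 at 10 μg/kg (SE 0.43, edgeR adjusted p = 0.181). The change at 30 μg/kg was 1.07 (SE 0.43, edgeR adjusted p = 0.112), with a 95% interval of 0.17 to 1.97. Without mouse 66 the change at 30 μg/kg was 0.37 (edgeR adjusted p = 0.652). Over the 9 alternatives with all mice, the change ran from 1.08 to 2.22 at 10 μg/kg and from 0.98 to 2.20 at 30 μg/kg. The 2.20 was with the clock score, and 1 of the 9 called Ido1 at each dose. With the Hox score in the model, Ido1 passed the threshold at 10 μg/kg (1.36, edgeR adjusted p = 0.0339) and at 30 μg/kg (1.23, edgeR adjusted p = 0.0269), which made 2 of 7 members called at each dose, beside 2.8% and 7.99% of all genes in that fit. The fit has 1 Hox coefficient for all mice, whereas Ido1 itself had r = -0.650 with the score in the first index set (permutation p = 0.00648, adjusted 0.0486; rho = -0.55, permutation p = 0.0293, adjusted 0.11), 0.197 in the second (permutation p = 0.57, adjusted 0.684; rho = 0.282, permutation p = 0.403, adjusted 0.639) and -0.24 over all mice (permutation p = 0.226, adjusted 0.261; rho = -0.120, permutation p = 0.549, adjusted 0.549). Without the 2 farthest mice r was -0.386 in the first set and 0.078 over all mice.

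Interferon-γ is the known inducer of Ido1 and Wars, and macrophages and dendritic cells are known sites of Ido1. Of 13 tested interferon-γ response genes, 0 were called at 30 μg/kg (median change -0.11, 4 of 13 above 0) and 1, the guanylate-binding protein gene Gbp3, was called at 10 μg/kg (0.97, SE 0.27, edgeR adjusted p = 0.0473), where the median was 0.29 and 9 of 13 were above 0. Over dose rank 2 of the 13, Gbp2 and Gbp3, had an upward slope that passed, beside 11.8% of all genes. The call of Gbp3 was lost without any 1 vehicle-treated mouse, mouse 57 or mouse 59 (0.74 to 1.04, edgeR adjusted p 0.0940 to 0.189). Ifng itself was at 0 counts in 24 of the 27 mice. The summed level of the response genes was 343 to 373 CPM with vehicle, 329 to 412 CPM at 10 μg/kg and 273 to 387 CPM at 30 μg/kg, and mouse 66, the highest for Ido1, was also the highest of its dose at 387 CPM. Of 8 macrophage markers, 1 was called as higher at 30 μg/kg, the complement gene C1qc (1.22, SE 0.34, edgeR adjusted p = 0.0250), all 8 had changes above 0, and their summed level was 24.98 to 28.8 CPM with vehicle and 26.9 to 39.6 CPM at 30 μg/kg, with mouse 66 at 26.9 CPM. C1qc was not called without vehicle mouse 2 or 3, or without mouse 65 or 67 (1.01 to 1.24, edgeR adjusted p 0.0747 to 0.0993). Of 4 tested dendritic cell markers 0 were called (median -0.24), and the 8 listed summed to 4.95 to 5.61 CPM with vehicle and 3.26 to 5.68 CPM at 30 μg/kg. The defining markers Clec9a and Cd209a were at 0 counts in 9 and 13 mice. The part of these cells in the values of Ido1 was not tested.

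Wars, the cytoplasmic tryptophanyl-tRNA synthetase, differed little between groups but also had little spread. Vehicle-treated mice held 85.2, 85.2 and 92.9 CPM, those at 10 μg/kg 98.7, 103 and 108 CPM, and those at 30 μg/kg 107, 130 and 104 CPM. Neither dose overlapped with vehicle, and nor did the lowest dose, with 101, 94.2 and 93.9 CPM at 0.01 μg/kg. At 30 μg/kg Wars had a log2 fold change of 0.38 (SE 0.082, edgeR adjusted p = 0.00552), a 1.30-fold difference that passed the adjusted p but not the fold of 1.5. By the adjusted p alone, 2 of the 7 members, Kyat1 and Wars, passed at 30 μg/kg, beside 11% of all genes. Wars did not pass the adjusted p at that dose with the clock score in the model (0.44, edgeR adjusted p = 0.124) or with only the groups compared (0.37, edgeR adjusted p = 0.0677). At 10 μg/kg the change was 0.23 (SE 0.082, edgeR adjusted p = 0.120). Of 20 other tRNA synthetases, 0 were called at 30 μg/kg, 17 had a change above 0 and the median was 0.13. Over dose rank 2 of the 20 slopes passed upward and 2 downward, beside 11.8% and 11.6% of all genes. Wars2, the mitochondrial tryptophanyl enzyme, stood at -0.55 (SE 0.17, edgeR adjusted p = 0.0417) at 30 μg/kg, short of the fold of 1.5.

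Il4i1, the amino acid oxidase, had lower values at the 4 highest doses but was called at none of them. Vehicle-treated mice held 3.44, 2.64 and 2.75 CPM (35, 25 and 28 counts), those at 10 μg/kg 1.88, 1.28 and 2.24 CPM and those at 30 μg/kg 2.23, 2.01 and 1.64 CPM. Every mouse at 1 μg/kg (1.19, 2.44 and 1.59 CPM) and at 3 μg/kg (1.65, 2.57 and 2.02 CPM) also lay below every vehicle-treated mouse. The log2 fold change was -0.78 (SE 0.29, edgeR adjusted p = 0.337) at 1 μg/kg, -0.70 (SE 0.29, edgeR adjusted p = 0.189) at 10 μg/kg and -0.58 (SE 0.28, edgeR adjusted p = 0.189) at 30 μg/kg, so none passed. With an index set term the changes at 10 and 30 μg/kg were -1.46 and -1.34 (edgeR adjusted p = 0.186 and 0.154), and with the Hox score -0.81 and -0.64 (edgeR adjusted p = 0.0664 and 0.0882). Values as low were not limited to these doses, since the mice at 0.01 μg/kg held 2.05, 1.39 and 2.66 CPM. Tbc1d17, with which Il4i1 shares most of its exon bases, had a change of 0.0023 at 30 μg/kg, with means of 28.2 CPM with vehicle and 28.3 CPM at 30 μg/kg.

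Afmid, the formamidase that follows IDO1, varied within narrow limits. Vehicle-treated mice held 7.58, 5.80 and 7.26 CPM, and those at 30 μg/kg held 8.27, 10.0 and 7.24 CPM, so the groups overlapped. Its log2 fold change was 0.31 (SE 0.17, edgeR adjusted p = 0.271) at 30 μg/kg and 0.25 (SE 0.18, edgeR adjusted p = 0.484) at 10 μg/kg. At the 5 doses up to 1 μg/kg the changes of Afmid lay between -0.28 and 0.18.

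The NAD branch was at the limit of detection. Kynu, which cleaves the alanine side chain from kynurenine and hydroxykynurenine, had 2 to 15 counts per mouse, 0.492, 0.211 and 0.785 CPM with vehicle and 1.08, 0.920 and 1.29 CPM at 30 μg/kg. The Kynu groups did not overlap, and the log2 fold change was 1.11 (SE 0.50, edgeR adjusted p = 0.155), which did not pass. At 1 μg/kg all 3 mice held 2 or 3 counts of Kynu, a change of -1.14 (SE 0.66, edgeR adjusted p = 0.596). Kmo, which hydroxylates kynurenine, had 1 to 15 counts per mouse, with 1.28, 0.422 and 0.687 CPM with vehicle, 0.719, 0.502 and 0.345 CPM at 30 μg/kg, and a change of -0.59 (SE 0.56, edgeR adjusted p = 0.539). The 95% intervals at 30 μg/kg, 0.071 to 2.16 for Kynu and -1.74 to 0.57 for Kmo, are wide, and for Kmo the interval reaches from a fall of more than 2-fold to a rise, so its direction was not detectable at this depth.

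Haao, the dioxygenase whose product leads to quinolinate, had 52 counts over all 27 mice, 0 to 5 per mouse, with 0 in 7 mice. At 30 μg/kg the 3 mice held 0, 1 and 5 counts of Haao, and with vehicle 1, 3 and 1. Aadat, which like Kyat1 is a kynurenine aminotransferase, had 3 counts in all, in 2 mice, and 0 in the other 25. A count of 0, taken as allowing up to 3 counts, allowed up to 0.205 to 0.333 CPM depending on the mouse. These limits and counts cover counting error only. No fold change was given for Haao or Aadat.

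Over all 27 mice, a straight line over dose rank gave 5 of the 7 members an edgeR adjusted p under 0.05, 4 upward and 1 downward, beside 23.4% of all genes (11.8% upward and 11.6% downward). The slope per dose step, on the log2 scale, was 0.17 (SE 0.036, edgeR adjusted p = 0.00114) for Ido1 and 0.17 (SE 0.031, edgeR adjusted p = 0.000287) for Kyat1. Wars rose by 0.034 per step (SE 0.0077, edgeR adjusted p = 0.00205) and Afmid by 0.049 (SE 0.016, edgeR adjusted p = 0.0276). Il4i1 fell by 0.083 per step (SE 0.029, edgeR adjusted p = 0.0390). With mouse 57 or mouse 66 left out, 3 of the 7 slopes passed, since Afmid (edgeR adjusted p = 0.0505 and 0.0903) and Il4i1 (0.0550 and 0.0541) did not. The Il4i1 slope was also not called without vehicle mouse 2, or without mouse 18, 49, 58 or 67, with edgeR adjusted p of 0.0549 to 0.0763, or without a filter on low counts, at 0.0703. Kynu (0.094, SE 0.051) and Kmo (-0.044, SE 0.053) did not pass. With a term for the index set, or with the clock score in the model, 0 of the 7 slopes passed, where 0.0798% and 0.267% of all genes passed. The slopes of Ido1 and Kyat1 with the index set term were 0.099 (SE 0.069) and 0.19 (SE 0.059), with edgeR adjusted p of 0.513 and 0.132.

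**Figure D4:**
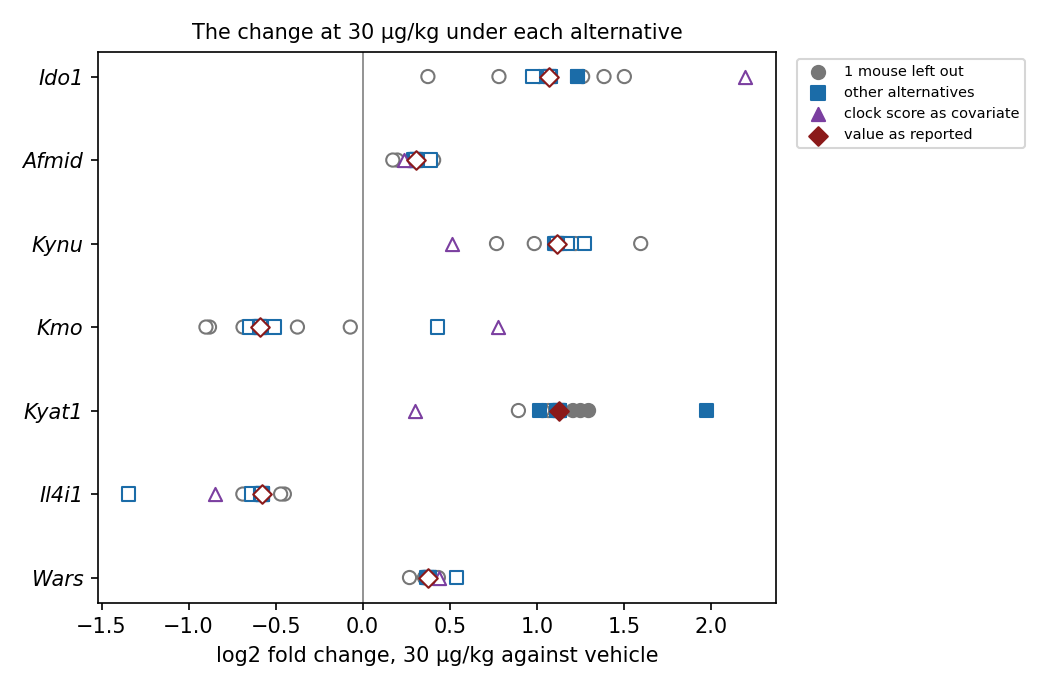
Each symbol gives the log2 fold change at 30 μg/kg against vehicle (horizontal axis) of 1 of the 7 tested members under 1 processing choice; filled symbols passed that choice's threshold. Kyat1 ran from 0.30 with the clock score as a covariate to 1.97 with a term for the index set, Ido1 from 0.37 without mouse 66 to 2.20 with the clock score, and Kmo lay on both sides of 0.

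Among the 5 members of at least 1 CPM, 7 of 10 pairs were correlated over the 27 mice at an adjusted permutation p of Pearson's r under 0.05, but 0 of 10 were within either index set (lowest adjusted permutation p 0.0948 and 0.143). Mice were permuted without regard to dose group, and all 5 members had slopes over dose rank that passed. These p-values therefore cannot separate a shared dose trend from other co-variation of the members. Afmid and Kyat1 were correlated over the 27 mice (r = 0.609, permutation p = 0.00077, adjusted 0.00578; rho = 0.532, permutation p = 0.00484, adjusted 0.0182), with r = 0.517 without the 2 farthest mice, 0.340 in the first index set and 0.668 in the second. Ido1 and Il4i1 ran opposite over all mice (r = -0.572, permutation p = 0.002, adjusted 0.00825; rho = -0.670, permutation p = 0.00021, adjusted 0.00158), with r = -0.570 without the 2 farthest mice and -0.538 in the first index set but -0.026 in the second. Ido1 and Wars (r = 0.564, permutation p = 0.0022, adjusted 0.00825; rho = 0.421, permutation p = 0.0304, adjusted 0.0651) rested in part on the 2 farthest mice, without which r was 0.334, and r was 0.187 in the first index set and 0.569 in the second, where it was -0.0083 without the 2 farthest mice. Ido1 and Kyat1, both of which had a positive slope, had r = 0.342 over all mice (permutation p = 0.0804, adjusted 0.134; rho = 0.308, permutation p = 0.118, adjusted 0.177), 0.168 without the 2 farthest mice, -0.183 in the first index set and 0.204 in the second. Without the 2 farthest mice of each set, r of this pair was -0.686 in the first and -0.087 in the second. Il4i1 and Wars also ran opposite over all mice (r = -0.433, permutation p = 0.0237, adjusted 0.0451; rho = -0.543, permutation p = 0.00418, adjusted 0.0182), with r = -0.529 without the 2 farthest mice, -0.575 in the first index set and 0.041 in the second. Within an index set, with 16 and 11 mice, r was thus as large as over all mice for some pairs and near 0 for others, and none passed.

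The genes around the pathway were followed in lists. Of 8 genes of tryptophan and kynurenine transport, 1 was called as higher and 1 as lower at 30 μg/kg, beside 2.95% and 3.21% of all genes. At 10 μg/kg 1 was called as higher, beside 0.812%. The same pair, Slc6a19 and Slc6a14, had the slopes over dose rank that passed, upward and downward, beside 11.8% and 11.6% of all genes. Between 30 and 3 μg/kg, within the second index set, 1 of the 8 was called as lower, beside 0.242% of all genes. Slc6a19, the neutral amino acid transporter B0AT1 that takes up tryptophan, held 2.46, 3.16 and 5.10 CPM with vehicle, 19.2, 4.37 and 19.7 CPM at 10 μg/kg and 11.9, 32.1 and 13.6 CPM at 30 μg/kg. Its log2 fold change was 2.01 (SE 0.46, edgeR adjusted p = 0.0166) at 10 μg/kg and 2.42 (SE 0.46, edgeR adjusted p = 0.00172) at 30 μg/kg, and as for Kyat1 mouse 58 lay within the vehicle range. Slc6a14, the broad amino acid transporter ATB0,+, fell from 699, 708 and 751 CPM with vehicle to 440, 331 and 286 CPM at 30 μg/kg, a change of -1.03 (SE 0.15, edgeR adjusted p = 0.000142), and was called at 30 μg/kg under every alternative run. Slc7a5 and Slc3a2, the chains of the exchanger LAT1, had changes of 0.18 (SE 0.20) and 0.18 (SE 0.13) and were not called. The other 4, Slc7a8, Slc16a10, Slc36a4 and Slc7a11, had changes of -0.28, 0.32, 0.19 and -0.45 at 30 μg/kg and were not called either. At 30 μg/kg Slc6a19 was not called with the clock score in the model (2.57, edgeR adjusted p = 0.128) or with limma voom, where its adjusted p was 0.0145 but the posterior probability was under 0.8. At 10 μg/kg it was not called with limma voom, an index set term, the clock score or only the groups compared (1.80 to 2.82, adjusted p 0.0922 to 0.294). At that dose Slc6a19 was also not called without vehicle mouse 2 or 3, or without mouse 57 or 59 (1.72 to 1.93, edgeR adjusted p 0.0649 to 0.0887).

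**Figure D5:**
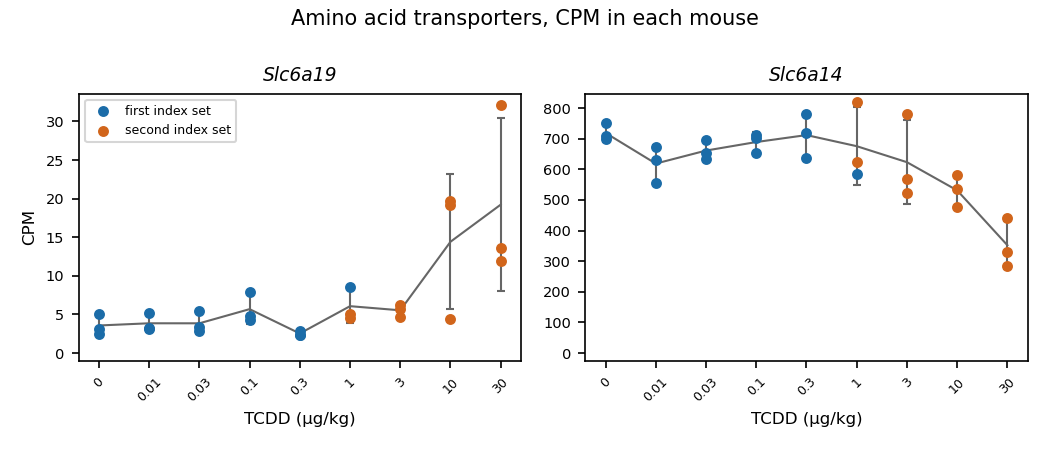
Panels plot CPM (vertical axis) of Slc6a19 and Slc6a14 in each of the 27 mice by TCDD dose (horizontal axis, μg/kg); lines join group means, bars are the SD over 3 mice and colour gives the index set. Slc6a14 was at 286 to 440 CPM at 30 μg/kg, below all vehicle-treated mice at 699 to 751 CPM, and Slc6a19 was above the vehicle range in all mice at 30 μg/kg and in 2 of 3 at 10 μg/kg.

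No gene was called at 10 or 30 μg/kg in 3 further lists. These were 4 tested kynurenine enzymes outside the members (Tdo2, Kyat3, Got2 and Gcdh, with a median change of 0.0034 at 30 μg/kg), 8 of NAD synthesis (median 0.080) and 5 genes of the serotonin branch (median 0.29). At 10 μg/kg the medians of these lists were -0.079, 0.12 and 0.41, and all 5 serotonin genes were above 0. Over dose rank the slope passed upward for Naprt, which starts NAD synthesis from nicotinic acid (1 of 8 genes of NAD synthesis), and for Maoa and Slc6a4 (2 of 5 of the serotonin branch), beside 11.8% of all genes, and for 0 of the 4 enzymes. Kyat3, a further kynurenine aminotransferase, was at 5.01 CPM with vehicle and 6.61 CPM at 30 μg/kg (0.40, SE 0.46). Ido2, Acmsd and Qprt, with 0 to 4, 0 to 3 and 0 to 6 counts per mouse, were as low as Haao. Slc6a4, the serotonin transporter, had a change of 0.90 (SE 0.41) at 30 μg/kg and was not called. The receptors Ahr and Gpr35, the latter a receptor for kynurenic acid, were not called at 10 or 30 μg/kg (median change 0.10 at 30 μg/kg), and their summed level was 69.6 to 75.3 CPM with vehicle and 71.3 to 82.3 CPM at 30 μg/kg.

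Markers of other cells differed between mice, and several had higher values at 30 μg/kg. Of 8 smooth muscle and stroma markers 0 were called but the median change was 2.19, with a summed 124 to 155 CPM with vehicle against 131, 399 and 694 CPM at 30 μg/kg. Higher values were not limited to that dose, since the stroma medians at 0.3, 3 and 10 μg/kg were 1.27, 1.11 and 1.48, and the sum reached 336 and 378 CPM in the groups given 0.01 and 0.03 μg/kg. Of 5 adipocyte markers 2 were called, Fabp4 (2.50) and Cfd (3.03), with a sum of 15.2, 33.5 and 156 CPM in mice 65, 66 and 67, beside 1.77 to 16.1 CPM with vehicle. The sum was also above the vehicle range at the lowest dose, 49.5 to 101 CPM at 0.01 μg/kg, and Fabp4 averaged 28.0 CPM there and 28.5 CPM at 30 μg/kg. Neither was called without mouse 67 (1.03 and 1.66, edgeR adjusted p = 0.466 and 0.306) or without vehicle mouse 2 or 4, nor was Fabp4 without vehicle mouse 3 or Cfd without mouse 66. Of 3 hepatocyte markers 1 was called, Apoa1 (2.29), which was not called without mouse 66 (1.27, edgeR adjusted p = 0.241) or vehicle mouse 2 or 3. The 7 goblet cell markers had a median change of -0.050 at 30 μg/kg, with 2 of 7 above 0 and a sum of 45638 to 51099 CPM beside 49919 to 57995 CPM with vehicle. 1 of them was called, Zg16 (0.98, SE 0.18, edgeR adjusted p = 0.00149), also called at 10 μg/kg (0.74, edgeR adjusted p = 0.0250), though not there without vehicle mouse 3 or 4 or mouse 57 or 59, at edgeR adjusted p of 0.0555 to 0.151. Zg16 was not called with an index set term or the clock score at 30 μg/kg (1.06 and 1.19, edgeR adjusted p = 0.0645 and 0.0637), nor at 10 μg/kg with these, limma voom or only the groups compared (0.71 to 0.95, adjusted p 0.0338 to 0.217). With limma voom, the index set term, the clock score or only the groups compared, Fabp4, Cfd, Apoa1 and C1qc at 30 μg/kg and Gbp3 at 10 μg/kg were not called either, nor was Cfd with DESeq2. Of 8 colonocyte, 8 enteroendocrine, 7 B and plasma cell and 6 tested T cell markers 0 were called, with medians of 0.18, 0.28, 0.20 and -0.19. Over dose rank, by contrast, the slope passed upward for 4 of 8 smooth muscle and stroma, 3 of 8 colonocyte, 2 of 8 macrophage, 2 of 7 B and plasma cell, 2 of 7 goblet cell and 2 of 3 hepatocyte markers, beside 11.8% of all genes, and for 0 of the adipocyte, enteroendocrine, dendritic cell and T cell markers. 1 goblet cell slope passed downward. Mouse 66 was the highest of all 27 mice for Ido1, Afmid, Wars and Slc6a19. It had the lowest stroma sum of its dose, at 131 CPM, and the highest hepatocyte marker sum of all 27 mice, at 49.1 CPM (41.4 CPM of it from Apoa1) beside 6.54 to 9.94 CPM with vehicle. Of the other listed hepatocyte markers, Alb held 1 to 17 counts per mouse, Ttr 14 to 212, and Serpina1a 0 in 26 of the 27 mice. The sum in mouse 66 thus rested mainly on Apoa1, and whether it reflects liver cells was not tested. Mouse 65, the highest at 30 μg/kg for Kyat1, had a stroma sum of 399 CPM and a hepatocyte sum of 23.7 CPM. The part of these cells in the members' values was not tested.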

How the data were processed

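RNA from colonic epithelial scrapings of 27 mice was sequenced, and the authors deposited 1 table of raw counts per gene for each mouse, not normalized. Per the labels and their processing notes, reads were checked with FastQC 0.11.3, trimmed with Trimmomatic 0.33, aligned to GRCm38 with TopHat2 2.1.0 and SAMtools 1.2.0, and counted with HTSeq 0.6.1. DESeq is named there with no version. Reads assigned to no feature were 29.1 to 33.3% and multiply aligned reads 30.7 to 37.1% of each table's total, and both were left out of library sizes. Gene counts per mouse were 9305441 to 14371035, so a count of 0 allows up to 0.205 to 0.333 CPM, counting error only.

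Members were matched by symbol through their Ensembl IDs (45143 of 46078 genes had a symbol). Members and gene lists were chosen with earlier results of these data known. Genes passed edgeR's filterByExpr (minimum count 10). CPM used count totals over the genes that passed this filter, scaled by TMM factors. RPKM used the union of GENCODE exons or, as an alternative, the longest transcript, and log2 CPM a prior count of 2. All 9 groups entered 1 edgeR 4.0.16 quasi-likelihood fit (R 4.3.3) with TMM factors and Benjamini-Hochberg adjustment over 16496 genes, tested on simulated data first. Called genes had an adjusted p under 0.05 and a fold of at least 1.5, slopes an adjusted p under 0.05. Correlations used 100000 permutations, two-sided and free across dose groups, adjusted over 15 relations. The 2 farthest mice were those farthest from the median of the second-named item. Single members were also compared by an exact two-sided permutation test. Alternatives were RLE factors, DESeq2 1.42.0, limma 3.58.1 voom (called at a posterior probability of 0.8 or more), no filter, an index set term, a Hox or clock score as covariate, only the groups compared, dose as log10, the adjusted p alone, and each mouse left out. The 27 pairs of mice within groups all differed by more than sampling noise (lowest chi-square per degree of freedom 5.84). All members, list genes called at 10 or 30 μg/kg (at most 6 a list) and the 5 genes nearest to Kyat1 were to be named. Kyat3, Wars2, Gbp2, Naprt, Maoa, Alb, Ttr, the transporters that were not called and the genes at or near 0 were named after their values were seen. Beside the 8 transport genes, 1 further gene chosen for that list is not reported here.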

Additional observations from a re-analysis of the deposited data

How the results depend on the processing

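No paired analysis was possible because no 2 groups share a mouse number. Of the 7 tested members, 1 was called at 10 μg/kg; 0 were with limma voom, an index set term, the clock score or only the groups compared, 2 (Kyat1 and Ido1) with the Hox score, and 0 to 1 with 1 mouse left out. At 30 μg/kg, where 1 was called, 0 were with limma voom or the clock score, 2 with the Hox score, 2 by the adjusted p alone, and 0 to 1 with 1 mouse left out. Kyat1 was called in 6 of 15 alternatives at 10 μg/kg and in 10 of 15 at 30 μg/kg. Of 5 slopes called, 0 were with the index set term or the clock score, 4 without a filter (Il4i1 was lost), and 3 to 5 with 1 mouse left out. No member was called at 0.01 to 3 μg/kg, or against 3 μg/kg, under any alternative run. The causes were not tested. Over all genes, the 1016 calls at 30 μg/kg became 218 with limma voom, 387 with the clock score, 648 with only the groups compared and 1818 by the adjusted p alone, and 593 to 1080 with 1 mouse left out. The 294 calls at 10 μg/kg became 95 with limma voom, 43 with the index set term, 22 with the clock score, 462 with the Hox score and 532 by the adjusted p alone, and 163 to 227 with 1 mouse left out. The 3865 slopes became 14 with the index set term and 45 with the clock score. The 115 calls at 3 μg/kg became 197 with DESeq2, 53 with limma voom, 180 without a filter, 2 with the index set term, 196 with the Hox score, 7 with the clock score, 183 with only the groups compared and 231 by the adjusted p alone, and 47 to 97 with 1 mouse left out (76 or fewer without vehicle mouse 2 or 4, or mouse 49 or 51). The 33 at 1 μg/kg became 73 with DESeq2, 21 with limma voom, 59 without a filter, 11 with the index set term, 63 with the Hox score, 1 with the clock score, and 3 to 26 with 1 mouse left out, lowest without vehicle mouse 2. The 76 between 30 and 3 μg/kg became 151 with DESeq2, 148 without a filter, 141 without mouse 65 and 33 to 44 without any 1 of the other 5 mice, and the 8 between 10 and 3 μg/kg became 14 with DESeq2 and 5 to 8 with 1 mouse left out.

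Changes of sign were in values that passed no threshold, other than the slope of Il4i1, which was 0.017 with the clock score. Kmo at 1 μg/kg was -0.00093 with RLE factors, -0.0092 with DESeq2, -0.0045 without a filter, -0.041 with the Hox score and -0.0024 with only the groups compared, and -0.47 to 0.52 with 1 mouse left out. With the index set term, Kmo was 0.20 at 3, 0.23 at 10 and 0.43 at 30 μg/kg with a slope of 0.022, Afmid at 3 μg/kg was 0.033 and Fabp4 at 10 μg/kg was -0.31. With the clock score, Kmo was 0.53, 0.55 and 0.78 at these doses, and at 3 μg/kg Kynu was -0.45 and Kyat1 -0.49. Kynu at 3 μg/kg was -0.018 with limma voom. With 1 mouse left out, Afmid (-0.16 to 0.025) and Kynu (-0.88 to 0.63) at 3 μg/kg took both signs, as did, at 10 μg/kg, Fabp4 (-0.13 to 0.85) and Cfd (-0.26 to 1.32), between 30 and 3 μg/kg, Ido1 (-0.44 to 0.57), Kmo (-0.090 to 0.44) and Il4i1 (-0.22 to 0.093), and between 10 and 3 μg/kg, Kmo (-0.23 to 0.19) and Wars (-0.017 to 0.088). Of 420 values of the members at the 4 lowest doses, 51 changed sign and 0 were called. Depth limits Haao and Aadat, at 0 to 5 counts per mouse and not tested, and Kynu, Kmo and Il4i1, at 1 to 53.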
